A study of Mus musculus with 3 samples.

Results

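The genes described here encode the proteins of the cytosolic ribosome. They were chosen by name on a mouse expression array: every probe whose gene name is Rpl or Rps followed by a digit, with Rplp0, Rplp1, Rplp2 and Rpsa added and the Rps6k kinases left out. The rule found 92 gene names and 197 probes, of 30396 names and 39429 probes in all. Of these, 91 names and 195 probes were measured well enough on every array to be tested, among 20389 genes and 26318 probes. The tested names fell into 43 genes of the large subunit, 31 of the small subunit, 3 of the stalk, 7 paralogs, 6 names of pseudogenes, and Rps19bp1, which matches the rule but encodes a binding partner of a ribosomal protein. The values did not choose the members, but the classes and lists were drawn up with earlier results of these data known.

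The samples were embryoid bodies, floating balls of differentiating mouse embryonic stem cells, grown for 10 days in low attachment plates in medium lacking LIF. One group was the wild type control. The other carried Dido3deltaCT+HADido3CT: its Dido3 protein was cut short at the C-terminus, and the missing end (CT) was overexpressed as a separate piece. It is called mutant+CT below. No group carried the truncation alone or the construct alone, and the labels name neither the stem cell line nor the number of mutant clones. There were 3 biological replicates of each condition. Each array received 1 RNA of each kind, with wild type in the red dye Cy5 on replicates 1 and 3 and in the green dye Cy3 on replicate 2. Unless a level is named, values are log2 ratios with mutant+CT as the numerator.

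A ribosome has a small subunit, which reads the messenger RNA, and a large subunit, which joins the amino acids. Cells make most of these proteins in matching amounts. Stalk proteins recruit the factors that drive translation. Ribosomal protein messenger RNAs are among the most abundant of a dividing cell. Many of them start with a run of pyrimidines, the TOP tract, through which mTOR signalling controls their translation. A few genes have paralogs, copies used in particular tissues such as testis or muscle.

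The same probes read these genes on all arrays, so their sequences are shown first. The first set holds 4 of the probes whose green signal most exceeded the red one and 4 of those whose red signal most exceeded the green one, because the results turn on that contrast. Each line gives 30 of the 60 bases of a probe, 5′ to 3′. Capitals mark AATAAA, the letters of the most common polyadenylation signal, where a probe holds it.
Rpl7a probe A_55_P2037922, green side: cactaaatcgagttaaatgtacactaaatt
Rpl11 probe A_55_P2139673, green side: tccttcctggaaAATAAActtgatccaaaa
Rps21 probe A_52_P740562, green side: gaatttgttacaAATAAAagttttaagtac
Rpl7a probe A_55_P2001347, green side: cactaaattgggttaaatgtatgctgaatt
Rpl41 probe A_55_P2027819, red side: aatgaccgcctttcttacaaccaaaacagt
Rplp2 probe A_55_P1990285, red side: ctgctcccctgcaAATAAAgtctttttatg
Rpl37a probe A_55_P1957204, red side: tgcctagcctgcAATAAAcgggttatttac
Rps2 probe A_55_P2070347, red side: cctgactctcgacctctggaaagagactgt
In the files' mm9 coordinates, the 2 Rpl7a probes share chr2:26768759-26768818 (plus strand), the Rpl11 probe lies at chr4:135605863-135605922 (minus strand) and the Rps21 probe at chr2:179993084-179993143 (plus strand). The Rpl41 probe lies at chr10:127985258-127985317 on the minus strand. Exons and untranslated regions were not assigned, since mm9 gene models were not used.

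The 2 Rpl7a probes filed at the same position are not the same sequence. They differ at 6 of their bases, marked in capitals below and counted from the 5′ end of the probe: T24C, G26A, T37C, G38A, G41A and A52C, with A_55_P2001347 first.
Rpl7a probe A_55_P2001347, bases 24 to 53: TgGgttaaatgtaTGctGaattttctgtAc
Rpl7a probe A_55_P2037922, bases 24 to 53: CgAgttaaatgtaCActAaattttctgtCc

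Some facts of the whole series bear on these values. No spot was saturated, and 196 of the 197 ribosomal protein probes were well above background on every array in both channels. The 4 kept probes of Dido1, the targeted gene, had mean ratios from -2.39 to 3.53, and their place relative to the deleted part was not determined. Markers of several cell types differed between the groups. All 5 markers of undifferentiated cells were higher on every array (median 1.73), as were all 5 of visceral endoderm (1.55). Of 5 neural markers, 4 were lower on every array (median -3.20), as were 4 of 5 parietal endoderm markers (-2.44) and 3 of 4 erythroid ones (-2.16). Heart markers had a median of 0.19, with 3.79, -1.42 and -1.71 on the arrays. Mesenchyme markers had 0.60, with 4.54, -2.16 and 0.34, so replicate 1 stood far above the other arrays in both lists. The 7 dividing-cell markers had a median of -0.14, with 0.03, -0.35 and 0.12 on the arrays. In such bulk samples fewer cells of a type and less RNA per cell cannot be told apart, and the part of cell makeup in the ribosomal values was not tested.

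Averaged over the arrays, ribosomal protein transcripts differed little between mutant+CT and wild-type embryoid bodies. The median ratio of the 91 genes was -0.05, beside -0.00 for all genes tested. No member passed limma's test at adjusted p under 0.05 (0 of 91, with 0% of all genes called), and the smallest adjusted p of a member was 0.146, for Rps4y2. With Agilent's processed signals in place of these ratios, 1.59% of all genes passed and 0 of the 91 members. At an unadjusted p under 0.05 the same test marked 2 members as higher, Rps13 and Rps4y2, where 9.05% of all genes were marked, and 1 as lower, beside 6.7% of all genes. Over probes, 0 of 195 passed at adjusted p under 0.05 (0.414% of all probes did), and 5 were higher and 7 lower at an unadjusted p under 0.05, beside 9.46% and 7.06% of all probes.

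The single arrays looked different from their mean. The member median was -0.36 on replicate 1, 0.37 on replicate 2 and -0.10 on replicate 3, while the medians of all genes were 0.01, 0.01 and 0.02. The size depended on the scaling: the member medians were -0.62, 0.79 and -0.24 with median centring and -0.22, 0.27 and -0.03 with Agilent's processed signals. Replicate 2, the array with the dyes exchanged, thus stood on the other side of 0 from the rest. Of the 91 genes, 61 (67.0%) had replicate 2 opposite in sign to both other arrays, beside 33.4% of all genes. In 46 of them replicate 2 was the higher one and in 15 the lower one. Only 6 members were higher on every array, beside 20.3% of all genes, and 2 were lower on every array, beside 17.4%. No member was 2-fold apart in 1 direction on every array, where 1.9% of all genes were 2-fold higher and 0.991% 2-fold lower. Replicate 2 was alone in its dye orientation, so an effect of the dyes and a difference of that replicate cannot be told apart.

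**Figure D1:**
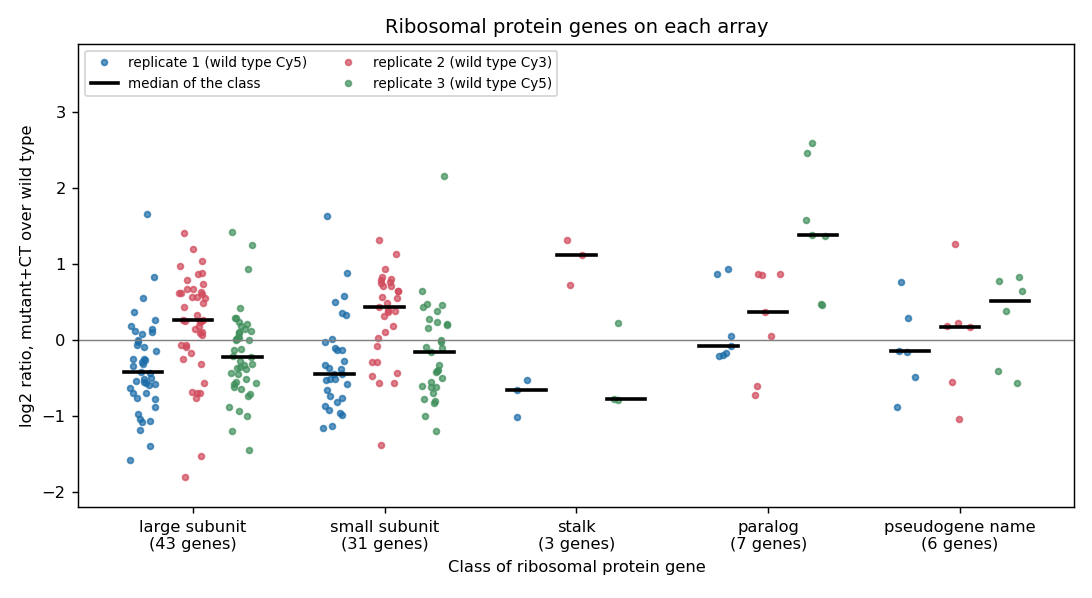
Log2 ratio of mutant+CT over wild type for each ribosomal protein gene (points, brightest kept probe) on each of 3 arrays, by class; black bars are class medians, and Rps19bp1 is not drawn. Large-subunit medians sit at -0.42, 0.26 and -0.22, and small-subunit medians at -0.44, 0.44 and -0.15, while paralogs sit at -0.08, 0.37 and 1.38.

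Across the 195 member probes, ratios of replicates 1 and 3, which share an orientation, had a Pearson correlation of 0.78, while replicates 1 and 2 had -0.60 and replicates 2 and 3 had -0.47. Over all 26318 kept probes these were 0.56, 0.21 and 0.37. Probes share arrays and RNA and are not independent replicates, so the correlations are descriptions. Replicate 2 was opposite for 117 of these probes (60.0%), beside 32.8% of all. A dye term added in limma reached an unadjusted p under 0.05 for 62 of 195 member probes (31.8%), beside 11.4% of all probes, and an adjusted p under 0.05 for 0 of them. Brightness moves with this pattern: member probes had a median log2 intensity of 15.8, beside 9.35 for all kept probes. Of the 1798 other probes at a log2 intensity of 14 or more, 48.3% had replicate 2 opposite, beside 64.1% of the 167 member probes that bright and 35.7% of the 28 dimmer ones. The part of brightness in the pattern was not tested.

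**Figure D2:**
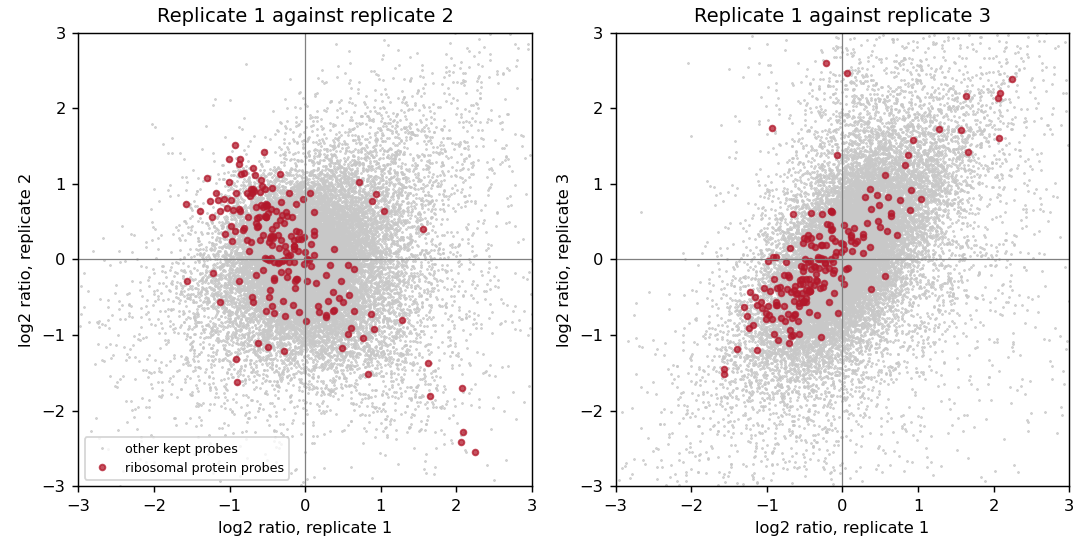
Log2 ratio of mutant+CT over wild type of each kept probe on replicate 1 (x) against replicate 2 (left) and replicate 3 (right); ribosomal protein probes are red and other kept probes grey, and 571 other probes reach past 3 in size on an array and may lie outside the axes. Red points run downward on the left (Pearson -0.60) and upward on the right (0.78).

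When the 2 dye orientations were given equal weight, the 77 core genes (large subunit, small subunit and stalk) lay close to 0. Their quartiles were -0.11 and 0.16, beside -0.26 and 0.28 for all genes, and 2.60% of them were 0.5 or more away from 0, beside 27.5% of all genes. In the plain mean of the 3 arrays that share was already low, at 6.49% of core genes beside 29.8% of all genes. On single arrays it was 54.5%, 57.1% and 40.3% for core genes and 37.2%, 40.1% and 50.5% for all genes. With equal weight, Rps13 was one of the 2 core genes that stayed 0.5 or more away.

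Rps13, which sits in the small subunit near its interface with the large one, had the smallest p of the core genes on the higher side. Its brightest probe, A_55_P2146749, had wild-type levels of 15.89, 15.39 and 15.64. Its mutant+CT levels were 16.78, 16.16 and 16.29, without overlap, and the share of all genes without overlap is not given here. The ratio was 0.77 ± 0.12 (SD, n = 3), with 0.89, 0.77 and 0.65 on the arrays, and limma's adjusted p was 0.199. Its other probe, A_55_P1963084, gave -0.02, 0.30 and -0.25 and so did not share the shift. The first probe covers 855 positions of the genome with 60 bases, at chr7:123475080-123475934, and the other lies at chr7:123475026-123475085, both on the minus strand.
Rps13 probe A_55_P2146749: gcgggtgctcccacctaattggaaatatga
Rps13 probe A_55_P1963084: gtgtgcacaagcAATAAAatcactttgagt

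Other core genes among those with the smallest p on each side were far from the threshold. On the higher side were Rps28 (0.33 ± 0.43), Rpl27 (0.29 ± 0.29) and Rps21 (0.81 ± 1.91), with limma's adjusted p from 0.618 to 0.668. Of them Rpl27 alone was above 0 on all arrays at the probe that stands for the gene, at 0.12, 0.63 and 0.12. Other probes reversed this: the second Rpl27 probe gave -0.45, 0.67 and -0.03, and the second Rps28 probe 0.11, 0.33 and 0.32. On the lower side were Rpl13 (-0.49 ± 0.64), Rpl41 (-0.76 ± 1.30) and Rpl39 (-0.37 ± 0.45), with adjusted p from 0.531 to 0.584. Rpl41, which encodes the smallest ribosomal protein, had -1.57, 0.74 and -1.45, with replicate 2 opposite. Of the 4 kept probes of Rpl13, the brightest and one other are filed on chromosome 4, while RefSeq places the gene on chromosome 8. In all, 14 of the 192 member probes with a chromosome in both the files and RefSeq, in 8 names, are filed on another chromosome than RefSeq gives.

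Among the probes that stand for their genes, the largest spread between arrays belonged to Rpl7a, Rps21 and Rpl4. An Rpl17 probe that does not stand for its gene, A_55_P2057519, spread more, at 2.24, -2.54 and 2.39. The Rpl17 probe that does had -0.25, 0.10 and -0.00. Rpl7a, a large-subunit protein, had 1.66, -1.81 and 1.43 at its brightest probe, with wild-type levels of 15.30, 17.13 and 15.38 and mutant+CT levels of 16.95, 15.33 and 16.81. Wild type was thus low in red on replicates 1 and 3 and high in green on replicate 2. The probe at the same position with 6 other bases gave 2.09, -2.29 and 2.20. Another Rpl7a probe, A_55_P2039598, gave -0.46, 0.28 and -0.43, the mirror image in sign. Rps21 had 1.63, -1.38 and 2.16 and Rpl4 had 0.83, -1.52 and 1.25.

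Of the 3 stalk genes, 2 had replicate 2 above 0 and the other arrays below. Rplp0, the base of the stalk, had -0.66, 1.12 and -0.78 at its brightest probe, and Rplp2 had -1.01, 1.33 and -0.79. Rplp1, which pairs with Rplp2, had -0.52, 0.73 and 0.22. Their means were -0.11 ± 1.06, -0.16 ± 1.29 and 0.14 ± 0.63 (SD, n = 3), so the spread over arrays was larger than each mean. That spread holds the dye orientation as well as the replicates. With the dye orientations weighted equally the values were 0.20, 0.21 and 0.29. Rplp0 has 3 probes, of which A_66_P105288, the most 3′ one, gave 0.64, -0.13 and 0.57 and had the sign pattern of Rpl7a.

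The 3 brightest members were Rpl10, Rps2 and Rpl23. Rpl10, a large-subunit protein added late in assembly, had 0.56, -0.07 and -0.22. Rps2, near the entry path of the messenger RNA, had -1.15, 0.79 and -0.50. Rpl23 had 0.00, 0.10 and 0.21, the narrowest spread of the 3. Its levels were 16.46, 16.24 and 16.31 in wild type and 16.46, 16.34 and 16.52 in mutant+CT, which overlap. These are values of the brightest probes, and other bright probes differed. Rpl23 probe A_55_P1961235, at an intensity of 16.19, gave 0.91, -0.92 and 0.92. The other Rpl10 probes gave 0.38, 0.14 and -0.39 (A_55_P1968729) and -0.70, 0.88 and -1.10 (A_55_P2005081).

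Probes of 1 gene often disagreed. Of 58 genes with at least 2 kept probes, 15 had the same sign pattern at all of them, and 15 had 1 probe with replicate 2 opposite upward and another with it opposite downward. In 171 pairs of probes of the same gene, mean ratios lay a median of 0.20 apart.

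Rpl11 and Rps24 were among the genes with probes whose means lay 1 or more apart. Rpl11, which also binds the p53 inhibitor Mdm2, had -0.69, 1.21 and -0.94 at the probe that stands for the gene, 0.02, -0.82 and -0.32 at one of almost equal intensity, and 2.07, -1.70 and 1.60 at A_55_P2139673, the most 3′ one. Rps24 had -0.10, 0.11 and 0.24 at its brightest probe and -0.28, -1.21 and -1.02 at A_55_P1955243. Rpl13a, named after its values were seen, was the only gene with all of its kept probes lower on every array: the means of its 3 probes were -0.26, -0.59 and -0.19, and the smallest adjusted p over all probes in limma was 0.307.

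**Figure D3:**
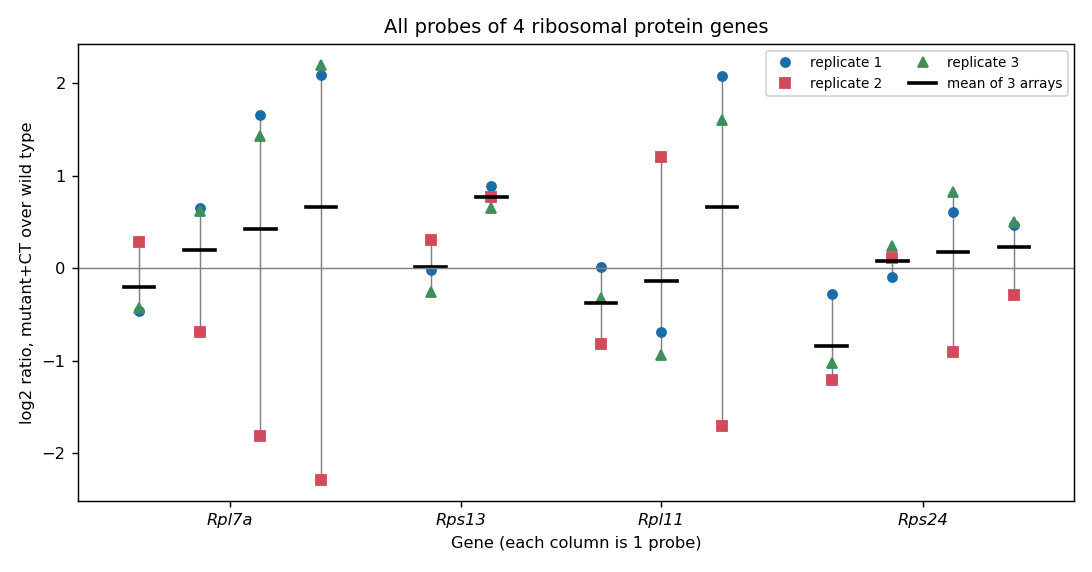
Log2 ratio of mutant+CT over wild type at every kept probe of 4 ribosomal protein genes, 1 column per probe, with a symbol for each of 3 arrays, a line for their range and a bar for their mean. Probes of Rps24 range from a mean of -0.84 to 0.23, and the squares of replicate 2 change sides between probes of Rpl7a and of Rpl11.

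Among dimmer probes a different pattern was seen, and it was noticed after the values were seen. In 14 genes, 15 probes with a log2 intensity under 14 lie downstream of the bright probes of the same gene. Of these 15, 7 were lower on every array, in 6 genes, beside 18.1% of all kept probes, and 1 was higher, beside 20.4%. They were Rpl21 (2 probes, -0.48, -0.49 and -0.52, and -0.62, -1.11 and -0.72), Rpl22 (-0.91, -1.32 and -0.26), Rpl23 (-0.49, -1.15 and -0.26), Rpl27a (-0.52, -0.69 and -0.56), Rpl31 (-0.43, -0.62 and -0.42) and Rps3 (-0.70, -0.50 and -0.24). The brightest probe of the same gene was at 0.01, 0.04, 0.11, -0.14, -0.06 and 0.06 on average, in the same order. The exception on the higher side was Rps6, whose protein is the substrate of the S6 kinases, at 0.72, 1.02 and 0.33. A brighter probe of Rpl15, A_66_P140976 (chr14:19100588-19100647, minus strand), also 3′ of the gene's other probe, gave -0.90, -1.62 and -0.98. None passed limma over all probes, and the smallest adjusted p was 0.121, for Rpl15.

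The median of the 7 paralogs was 0.56, with medians of -0.08, 0.37 and 1.38 on the arrays. The median of the 77 core genes was -0.06, with -0.44, 0.40 and -0.22 on the arrays, so the class medians differed in sign on replicate 3 only; no test compared them. Rps4y2, an Rps4x relative that RefSeq now names Rps4l, had 0.94, 0.86 and 1.58. Its levels were 14.47, 13.95 and 13.84 in wild type and 15.41, 14.81 and 15.42 in mutant+CT. They did not overlap, and here too the share of all genes without overlap is not given. Its ratio was 1.12 ± 0.39 (SD, n = 3), and limma's adjusted p was 0.146. Rpl39l, a relative of Rpl39 best known from testis, had 0.06, 0.87 and 2.47, or 1.13 ± 1.23 (adjusted p = 0.352). Rpl10l, a testis relative of Rpl10 that stands in when the X chromosome is silent, had -0.21, 0.87 and 2.60 at one probe and -0.93, 1.51 and 1.74 at the other. Rpl3l, the striated-muscle form of Rpl3, had -0.08, 0.37 and 1.38 (adjusted p = 0.510), and its mean is the class median of 0.56. Its probe was dim, at a log2 intensity of 7.18, where all kept probes had a median of 9.35 and a lowest value of 6.23. For these last 3 genes replicate 3 held the highest value and replicate 1 the lowest, and the levels of the groups overlapped.
Rps4y2 probe A_55_P2001628: acgtttgtttatacttaaaagttttttaag
Rpl39l probe A_55_P1969392: cagcagttcagtAATAAAtatgtgaaacct
Rpl10l probe A_55_P2088550: cttggattaagagtggctagagaagttgga
Rpl3l probe A_51_P243123: accaagaagcgagtgatcactctgagaaag

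The means of the other tested paralogs were nearer to 0, though that of Rpl36al, at 0.51, was almost that of Rpl3l (0.56). Rpl36al, close in sequence to Rpl36a, had 0.87, -0.72 and 1.38 on the arrays. Rpl7l1 had -0.16, -0.61 and 0.46, and Rps27l, a p53-induced relative of Rps27, had -0.20, 0.06 and 0.47. Rpl22l1 was not tested, because its spot on replicate 1 was marked as an outlier; it had -0.99 and -0.28 on replicates 2 and 3. The 6 pseudogene names had a median of 0.16, and 4 of them had replicate 2 opposite. Rps19bp1 had -0.42, 0.31 and -0.02.

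Base composition moved with the dye balance of the probes. For this, red over green was averaged over the 3 arrays, of which 2 had wild type in red. Over the 195 member probes the share of adenine had a Pearson correlation of -0.48 with log2 red over green, and the share of cytosine one of 0.42. Over all kept probes these were -0.45 and 0.34. With the mean ratio of mutant+CT over wild type, adenine and cytosine had weaker correlations. They were 0.20 and -0.27 over member probes, and 0.15 and -0.09 over all kept probes. AATAAA, searched on the probe's strand, stood in 57 of 195 member probes (29.2%) and in 14.1% of all kept probes. Member probes with it had a median log2 red over green of -0.01, and those without it 0.26. Over all kept probes these medians were -0.18 and 0.00. Of the 57 member probes with it, 18 were brighter in green and 18 in red on all 3 arrays. Of the 138 without it, these counts were 14 and 67. Over all kept probes they were 936 and 315 of 3706 with it, and 3336 and 4051 of 22612 without it. The green-side Rps21 probe is 38.3% adenine and 10.0% cytosine, and the red-side Rpl41 probe 25.0% and 35.0%. These comparisons were chosen after the values were seen, and the part of base composition in the ratios was not tested.

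**Figure D4:**
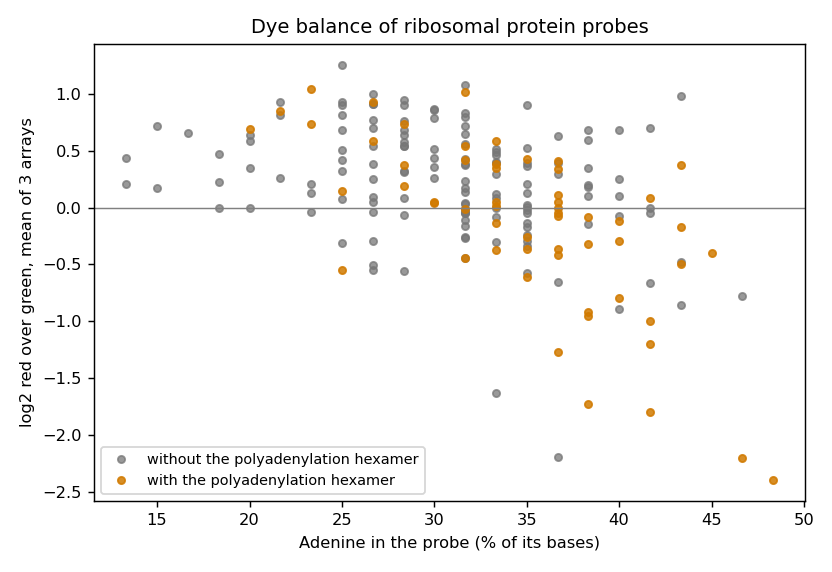
Share of adenine in each of 195 ribosomal protein probes (x, % of bases) against log2 red over green averaged over 3 arrays (y); orange points hold the common polyadenylation hexamer. Points fall from left to right (Pearson -0.48), and the Rpl17 probe at 48.3% adenine is lowest, at -2.39.

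Promoter letters were read from RefSeq sequences of GRCm38.p6, which matched 56 of the 77 core genes with 66 promoters, each from 250 bases before to 50 after a gene start. CTTTT or CTTTC on the sense strand within 20 bases of the start, letters found in TOP tracts, stood in 33.3% of core promoters and 9.42% of all 32851. CCGGAAG, read by GABP and other ETS factors, stood in 36.4% and 8.86%, and AAGATGGC, read by YY1, in 10.6% and 2.75%, both searched on both strands of the whole window. The median ratio was -0.15 over the 22 core genes with the TOP letters and -0.02 over the 34 without, and replicate 2 was opposite in 18 of 22 and in 22 of 34; the difference was not tested. Stretches from 10 bases before the start to 20 after it are shown for 4 genes named above, with the letters in capitals.
Rpl7a, chr2:26910797-26910826, plus strand: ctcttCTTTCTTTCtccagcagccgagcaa
Rplp2, chr7:141447641-141447670, plus strand: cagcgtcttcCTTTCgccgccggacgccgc
Rpl13a, chr7:45128726-45128755, minus strand: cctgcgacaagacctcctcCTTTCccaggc
Rpl15, chr14:18270967-18270996, minus strand: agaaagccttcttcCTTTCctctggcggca

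Ribosomal proteins filed under other names followed the core genes. Fau, whose product is cut to the small-subunit protein eS30, had -0.89, 1.36 and -0.96, and Rack1, a scaffold on the small subunit, had -0.33, 0.50 and -0.57. Both had replicate 2 opposite. The 77 mitochondrial ribosomal proteins, which build a separate ribosome, had a median of -0.05, with array medians of -0.03, -0.00 and 0.08. Of these 45.5% had replicate 2 opposite, 10 were higher and 8 lower on every array, beside 33.4%, 20.3% and 17.4% of all genes, and Mrps34 had the smallest p, at -1.08, -0.92 and -0.83.

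Genes that assemble ribosomes had positive medians on every array. For the 30 of the small-subunit list the median was 0.24 (0.32, 0.11 and 0.52 on the arrays), with 14 higher and 3 lower on every array, beside 20.3% and 17.4% of all genes. Tsr2, which hands Rps26 to the ribosome, had the smallest p and lay on the other side, at -0.72, -1.05 and -1.27. For the 41 measured of the large-subunit list the median was 0.26 (0.22, 0.12 and 0.51), with 15 higher and 1 lower on every array. Its gene with the smallest p was Nop2, a ribosomal RNA methyltransferase, at 0.75, 0.83 and 0.79. RNA polymerase I and its factors, which make ribosomal RNA, had a median of 0.07 over 14 genes, with Twistnb, one of its subunits, at 1.12, 1.01 and 1.39. RNA polymerase III and its factors had -0.22 over 18 genes, of which 7 were lower and 1 higher on every array, with Brf2 at -0.56, -0.99 and -0.51. No gene of these lists passed limma at adjusted p under 0.05, and the lists were not tested as sets. At an unadjusted p under 0.05 limma marked 3 higher and 1 lower in the small-subunit list, 1 higher in the large-subunit list, 2 higher for polymerase I and 3 lower for polymerase III, beside 9.05% of all genes higher and 6.7% lower.

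The 19 translation factors and other genes that share a TOP start had a median of 0.05, with 4 higher and 4 lower on every array and 5 with replicate 2 opposite, beside 20.3%, 17.4% and 33.4% of all genes, and the smallest p at Eef1d, an elongation factor subunit (0.49, 0.56 and 0.51). The 17 regulators of ribosomal protein supply had 0.11. Among them Eif4ebp2, a repressor of cap-dependent translation under mTOR, had 0.88, 1.03 and 0.73. The 10 S6 kinases, of which some are also in the regulator list, had -0.13, with Rps6ka1 at 0.39, 0.37 and 1.28. The 13 p53 targets, which include Rps27l, had 0.32 and array medians of 0.12, -0.21 and 0.74, with Trp53inp1 at 1.18, -0.23 and 2.03.

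**Figure D5:**
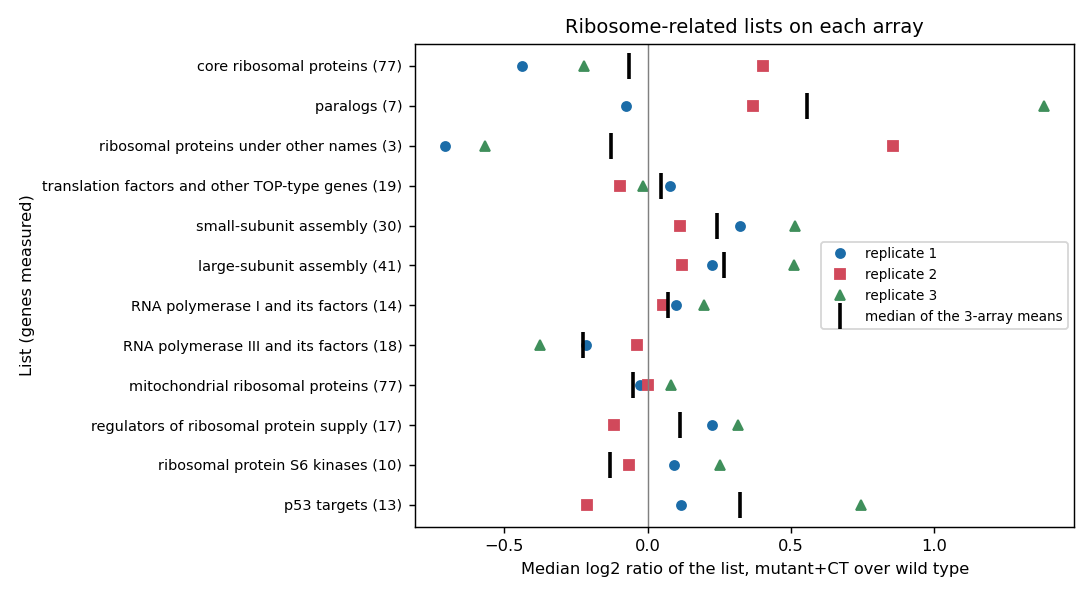
Median log2 ratio of mutant+CT over wild type of each list (x) on each of 3 arrays (symbols) and of the 3-array means (bars); the number of genes measured is in parentheses. Core ribosomal proteins have replicate 2 at 0.40 and the other arrays at -0.44 and -0.22, while both assembly lists lie above 0 on all arrays.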

How the data were processed

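Each replicate's wild-type and mutant+CT RNA shared 1 Agilent 2-colour mouse array, with 300 ng of cRNA per dye per the labels. All 3 arrays came from the same slide and scan. The deposited scanner files hold spot intensity, local background and flags, which Feature Extraction (10.7.3.1) wrote, as well as a processed intensity and a log10 ratio of red over green. Per the submitters' processing notes the authors used limma for the deposited log2 value table; its exact steps are not given in the sources used here. Its columns had medians of -0.02, 0.02 and -0.01, had mutant+CT as numerator, and correlated with the ratios computed here at 0.994, 0.996 and 0.998 over 39429 probes.

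Ratios came from limma 3.58.1 (R 4.3.3, statmod 1.5.0): normexp with an offset of 50, then loess within arrays, with control spots at weight 0 and outlier spots missing. A probe was kept when measured on all 3 arrays, a condition added after seeing the data, and well above background on all 3 in wild type or in mutant+CT. The kept probe brightest before scaling between arrays stood for its gene. Levels were scaled between arrays by quantiles of average intensity. Ratios were tested against 0 with limma and Benjamini-Hochberg adjustment over all genes or all kept probes. The steps were tested on simulated data. The number of arrays limits the precision.

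Members keep the array's names; RefSeq (GRCm38.p6) named other genes by accession for 30708 of 43020 spots. The members and lists were chosen with earlier results of these data known. Named are the 5 core members with the smallest p on each side, every paralog and stalk gene, genes whose probes lie 1 or more apart, the 3 with the largest SD, the 3 brightest, and the smallest p of each list; some items this rule picks are not reported here. Genes shown for the dye balance of their probes, for dim probes or for promoter letters were chosen after their values were seen, as were the intensity limit of 14, the base composition, AATAAA and the opposite sign of replicate 2. Markers with the smallest p were Tdgf1 (1.08), Apoa1 (2.12), Hes5 (-3.92), Col4a1 (-2.68), Hba-x (-3.09), Tnnt2 (1.57), Thy1 (1.14) and Mki67 (-0.65). The alternatives changed the background correction, the scaling (median centring, loess lacking the member probes, quantiles), the filter, the probe rule, the source of the values, the prior, the threshold and the model (dye term, separate channels), or left out 1 array.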

Additional observations from a re-analysis of the deposited data

How the results depend on the processing

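No ribosomal protein gene or probe passed under any of the 16 alternatives, among which Agilent's processed signals called 324 of 20389 genes (1.59%), the separate-channel fit 466 and leaving out replicate 1 196. The smallest adjusted p of a named member under an alternative was 0.0717, for Rps4y2. The member median stayed between -0.07 and 0.02 where all arrays were used, and ran from -0.25 to 0.11 with 1 array left out. The count of members lower on every array was 6 with Agilent's processed signals, 8 with the mean of all probes and 6 with the deposited table. With 1 array left out it ran from 4 to 48. The count higher then ran from 6 to 21, and the count 2-fold apart from 0 to 5. The highest of each came without replicate 2, where fewer arrays had to share a sign and those left shared a dye orientation. There limma gave 27 of 91 members an unadjusted p under 0.05, beside 4182 of all 20389 genes. For the other counts with 1 array left out, the shares of all genes are not given here. Without replicate 1 the count higher was 20.

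Of 24 named members, some changed sign. With the mean of all probes Rpl10 had -0.059, Rpl11 0.047, Rpl23 -0.074, Rplp0 0.075 and Rps24 -0.088; with the deposited table Rplp2 had 0.033; and with a dye term Rpl11 had 0.20, Rpl4 -0.24, Rpl7a -0.13, Rplp0 0.20 and Rplp2 0.21. With 1 array left out the ratio ran from -0.15 to 0.25 for Rpl10, -0.81 to 0.26 for Rpl11, -0.35 to 1.04 for Rpl4, -0.19 to 1.54 for Rpl7a, -0.39 to 0.15 for Rpl7l1, -0.72 to 0.23 for Rplp0, -0.15 to 0.48 for Rplp1, -0.90 to 0.27 for Rplp2, -0.83 to 0.14 for Rps2 and -0.069 to 0.27 for Rps27l. The cause was not tested. Among the named members that kept their sign under every alternative were Rps13 (0.39 to 0.83) and Rps4y2 (0.90 to 1.26). Others far from the threshold, such as Rpl27, kept theirs too, so a kept sign does not set these 2 apart. The main test is itself paired by replicate, since each ratio sets the 2 RNAs of a replicate against each other on 1 array.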
